A study of Homo sapiens with 6 samples.

Results

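AP-1, MYC and immediate early genes encode short-lived transcription factor mRNAs, and 10 of them were chosen by name, *JUN*, *JUNB*, *JUND*, *FOS*, *FOSL1*, *FOSL2*, *ATF3*, *MYC*, *EGR1* and *IER2*, among the 60708 genes of the count tables. The counts came from AGO2-RIP-seq, an assay in which the Argonaute protein AGO2 is immunoprecipitated and the RNA bound to it is sequenced. The cells were MDA-MB-231, a triple-negative breast cancer line with a mesenchymal phenotype, so all libraries share 1 genetic background. The transfected oligonucleotide was a miR-99b-5p mimic in one condition and a scrambled control in the other, used at 25 nM, and the harvest followed after 18 hours. The mimic was represented by 2 biological replicates, each with an AGO2-IP library and a flow-through library, which holds the RNA that the pull-down left behind. The control was represented by 1 AGO2-IP library and 1 flow-through library, so no control value has a replicate. The fraction of the control libraries is as their labels give it, while the study's supplement lists both as control replicates without a fraction, and every ratio with a control library rests on the labels. A transfected mimic raises 1 miRNA above its usual level, and the experiment was made in 1 cell line.

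AP-1 is a dimer of a JUN protein (JUN, JUNB or JUND) with a partner that is usually a FOS protein (FOS, FOSL1 or FOSL2), and ATF3 can join the same dimers. The dimers bind short DNA elements and pass growth factor and stress signals on to target genes. MYC, with its partner MAX, binds E-box elements and raises genes of growth and ribosome synthesis. FOS, EGR1, IER2, JUN, JUNB, ATF3 and MYC are immediate early genes, transcribed within minutes of a signal without new protein synthesis, and their mRNAs decay fast. For FOS and EGR1 the signal passes through the MAP kinases and serum response factor. FOSL1 (FRA-1) accumulates in cells with sustained ERK signalling and is known for its high level in mesenchymal triple-negative lines.

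The mature miRNA and the single seed match in these genes are shown because AGO2 recruitment by the mimic would start from seed pairing. The seed of the miRNA, bases 2 to 8, is in capitals in the first line, and the 6 bases that pair with seed bases 2 to 7 are in capitals in the second, where the site lies in the 3′ untranslated region of *FOSL2*.
miR-99b-5p: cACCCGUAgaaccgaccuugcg
FOSL2: caacaaagccacACGGGTgtcctagccagc
The miRNA sequence is from RefSeq (GRCh38.p14, chr19:51692618-51692639, plus strand). The *FOSL2* site lies at chr2:28413279-28413284 on the plus strand of GRCh38, 831 bases into a 3′ untranslated region of 4869 bases in ENST00000264716.9. It is a 6-base match, and neither 7-base form (TACGGGT or ACGGGTA) was present in the 3′ untranslated region of any of the 10 genes. The canonical transcripts of the other 9 genes held no ACGGGT along their whole length. Among 19229 annotated 3′ untranslated regions 5.69% held ACGGGT, 1.06% held TACGGGT and 1.01% held ACGGGTA.

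The 3′ untranslated regions also carry the AU-rich pentamer ATTTA, which is the core of elements that mark short-lived mRNAs for decay. *FOSL2* held 9 of them, *MYC* 6, *FOS* 5, *JUN* and *ATF3* 3 each, *JUNB* 2, *JUND*, *FOSL1* and *EGR1* 1 each and *IER2* 0, against a median of 2 over all 3′ untranslated regions. The longer form TTATTTATT was present once in *FOS* and once in *FOSL2*, and 8.50% of all 3′ untranslated regions held it. A match is a description of the letters and no measure of binding.

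The promoter table of RefSeq (GRCh38.p14, from 250 bases before to 50 bases after the start) held 8 of the 10 genes, and *FOSL1* and *MYC* were not in it. *EGR1* is shown because its level varied widely between replicates and because the CArG box, the site of serum response factor, is the element through which it is induced. Any part of the CArG box in the replicate difference was not tested, and *FOS*, which also varied widely, held none in its window. Both boxes are in capitals, at positions -105 and -83 from the start.
EGR1, chr5:138465374-138465383, plus strand: cggtcctgCCATATTAGGgcttcctg
EGR1, chr5:138465396-138465405, plus strand: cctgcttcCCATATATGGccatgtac
Searched on both strands, CArG boxes were present in 1.29% of 35116 promoter windows, and among the 8 genes only *EGR1* held one. The AP-1 element TGACTCA was found in the window of *FOSL2* and the related element TGACGTCA in that of *JUND*, against 4.95% and 1.85% of all windows. The windows of *JUN*, *JUNB*, *FOS*, *ATF3* and *IER2* held none of these 3 elements. The known serum response element of *FOS* is upstream of this window.

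The counts on genes ran from 38022779 to 48544756 in the mimic libraries and were 8076375 and 7772149 in the control AGO2-IP and flow-through. In the control libraries multimapping reads made up 76.7% and 73.7% of the read pairs, against 2.38% to 19.2% in the mimic libraries, and mitochondrially encoded genes held 43.4% of the gene counts of the control flow-through. The mesenchymal markers VIM, CD44, AXL, CAV1, MSN and LGALS1 summed to 2480 to 4426 CPM, which scales each count by the gene counts of its library, in every library. ESR1, PGR and CDH1, which define luminal or epithelial cells, were at most 3.96 CPM, although KRT8 (194 to 920 CPM) and ERBB2 (37.7 to 172 CPM) were measurable, and the 7 luminal or epithelial markers summed to 248 to 1054 CPM. Of the 5 markers of other cell types, PTPRC, ALB and KRT5 were at most 1.86 CPM, PECAM1 ran from 0.51 to 8.47 CPM and COL1A1, a collagen of fibroblasts, from 4.63 to 44.1 CPM.

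On the unstranded column FOSL1 and JUND mRNAs took the first ranks of abundance in 5 of the 6 libraries, and FOS and ATF3 mRNAs were among the least abundant in each. As RPKM, which divides CPM by the transcript length in kilobases, *FOSL1* ranked 1 of 10 in 5 of the 6 libraries, with 121 and 270 in mimic AGO2-IP, 243 and 184 in mimic flow-through, 617 in control AGO2-IP and 381 in control flow-through. *JUND*, the constitutively expressed JUN protein, was 164 and 76.6 RPKM in mimic AGO2-IP, 115 and 155 in mimic flow-through, 340 in control AGO2-IP and 119 in control flow-through. *JUND* took the top rank in the first mimic AGO2-IP library and rank 5 in the second.
*FOSL2*, *JUN* and *MYC* followed, with 30.9 to 155 RPKM for *FOSL2*, 31.1 to 118 for *JUN* and 27.2 to 154 for *MYC*. The ranges of these 3 genes overlap over the libraries, so no order among them is given. The lowest value of each was in the control flow-through, where mitochondrially encoded genes held 43.4% of the gene counts. With those genes left out of the scaling, *FOSL2*, *JUN* and *MYC* were there at 367, 179 and 179 CPM, against 208, 101 and 101 CPM with them. *JUNB* ran from 15.7 to 51.5 RPKM and *IER2* from 4.09 to 85.4, or from 19.8 to 274 when its strand columns were summed. The 274 was in the first mimic AGO2-IP library, above *JUND* (147) and *FOSL1* (108) summed in the same way, so the ranks there depend on the column. In that sum reads of *IER2* and of genes on its other strand are not told apart. *ATF3* stayed between 1.60 and 5.04 RPKM, while *FOS* ran from 1.21 to 24.0 and *EGR1* from 1.06 to 27.6. The smallest count behind any of these values was 40 read pairs, of *FOS* in the control flow-through, which gives 5.15 CPM with a 95% Wilson interval of 3.78 to 7.01 CPM that covers counting error only.

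**Figure D1:**
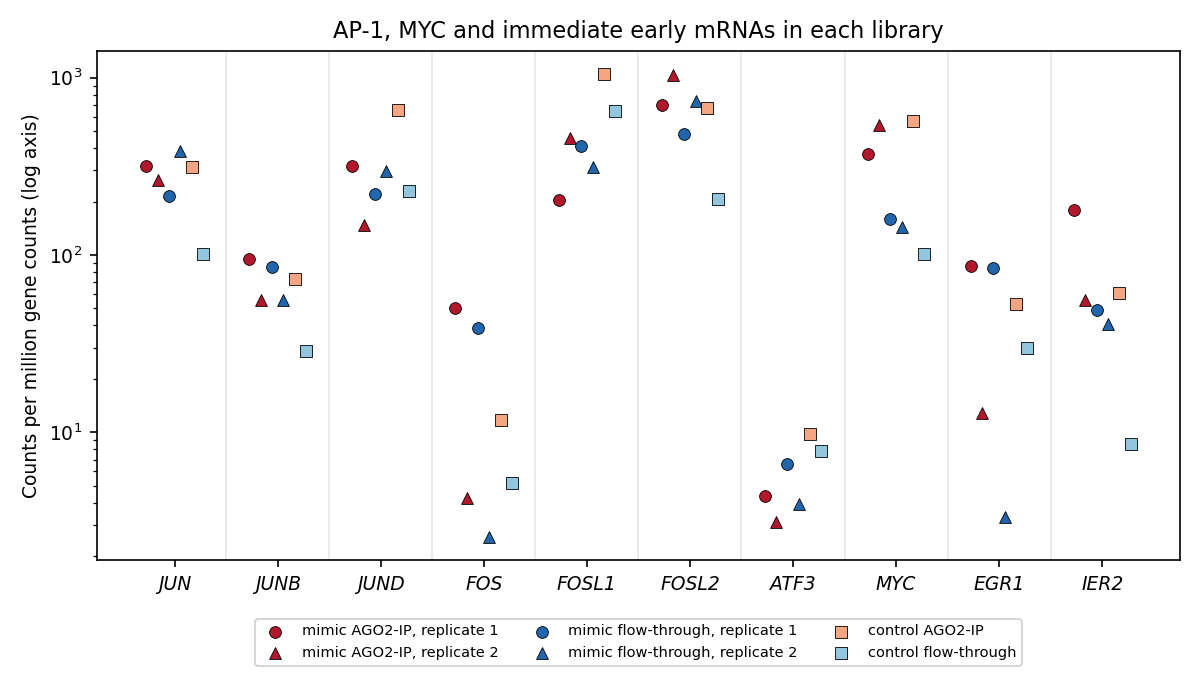
CPM (log axis) of each of the 10 genes in each of the 6 libraries, with 1 point per library, red for mimic AGO2-IP, blue for mimic flow-through, orange and light blue squares for the control AGO2-IP and flow-through. FOS runs from 2.55 to 50.4 CPM and EGR1 from 3.34 to 86.5 CPM, with the first mimic replicate (circles) above the second (triangles) in both fractions, while MYC lies higher in AGO2-IP than in flow-through for mimic and control.

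FOS and EGR1 mRNAs differed more between the biological replicates of the mimic than between its fractions. *FOS*, the prototype inducible AP-1 subunit, was at 50.4 CPM in AGO2-IP and 38.9 CPM in flow-through of the first replicate, and at 4.26 and 2.55 CPM in the second. *EGR1*, a zinc finger transcription factor, was at 86.5 and 84.8 CPM in the first replicate and at 12.8 and 3.34 CPM in the second. Both genes were high in both libraries of the first replicate and low in both libraries of the second, so the fractions overlapped. The control libraries lay between them, at 11.6 CPM in AGO2-IP and 5.15 CPM in flow-through for *FOS* and at 52.7 and 29.7 CPM for *EGR1*.
On the CPM scale the first replicate exceeded the second 11.8-fold in AGO2-IP and 15.2-fold in flow-through for *FOS*, and 6.78-fold and 25.4-fold for *EGR1*. After TMM normalization the log2 ratio of replicate 1 over replicate 2 was 3.49 and 3.41 for *FOS*, and 9 of 13078 genes (0.0688%) were at least as high in both fractions, *FOS* included. It was 2.7 and 4.16 for *EGR1*, with 39 genes (0.298%) at least as high in both. Over all genes tested 1.06% had a log2 ratio of at least 2 in both fractions, and 0.803% of at most -2. With 1 library per replicate and fraction this difference has no test, and in bulk RNA fewer cells with a transcript and less of it per cell cannot be told apart.

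The other 8 genes did not show a joint difference of this size. After TMM normalization *MYC* (-0.61 in AGO2-IP and -0.34 in flow-through), *FOSL2* (-0.63 and -1.12) and *FOSL1* (-1.22 and -0.09) were lower in the first replicate in both fractions. *ATF3* (0.42 and 0.26) and *JUNB* (0.71 and 0.13) were higher in both, and *JUN* (0.19 and -1.33), *JUND* (1.03 and -0.93) and *IER2* (1.63 and -0.23) took opposite signs in the fractions. In flow-through the sign of *FOSL1*, *MYC* and *IER2* depended on this normalization. On the CPM scale replicate 1 exceeded replicate 2 there, 1.32-fold, 1.11-fold and 1.20-fold. Among 35 tested genes of a list of other immediate early and short-lived genes, 6 were at least 2-fold higher in replicate 1 in both fractions and 1 at least 2-fold lower, against 4.26% and 3.91% of all genes. The 6 were *NR4A2*, *KLF4*, *BTG1*, *DUSP1*, *DUSP6* and *GEM*, named after their values were seen. *DUSP6* and *DUSP1* encode phosphatases that switch off MAP kinases. *DUSP6* was at 492 CPM in AGO2-IP and 235 CPM in flow-through of replicate 1, and at 90.8 and 21.6 CPM in replicate 2. *DUSP1* was at 139 and 131 CPM in replicate 1 and at 26.3 and 29.9 CPM in replicate 2. The gene in the other direction was *BTG2*, an antiproliferative gene, at 1.05 and 0.21 CPM in replicate 1 and at 14.5 and 0.97 CPM in replicate 2. Of the 5 markers of other cell types only the endothelial *PECAM1* was higher in replicate 1 in both fractions. It was at 2.55 and 8.47 CPM in AGO2-IP and flow-through of replicate 1 and at 0.53 and 0.87 CPM in replicate 2. *COL1A1* was at 39.3 and 12.9 CPM in replicate 1 and at 39.3 and 44.1 CPM in replicate 2. The 5 markers summed to 22.3 to 47.0 CPM in the mimic libraries. The part of other cells in the difference was not tested.

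**Figure D2:**
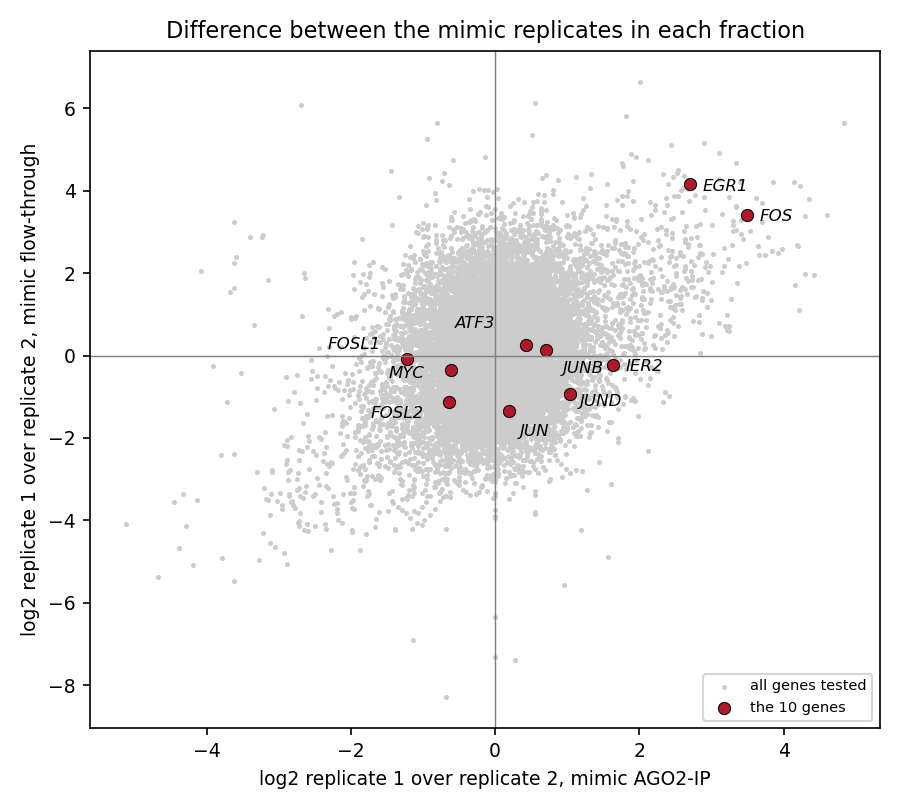
Log2 ratio of mimic replicate 1 over replicate 2 after TMM normalization, in AGO2-IP (x axis) and in flow-through (y axis), with 1 grey point per tested gene (13078 genes) and the 10 genes in red. FOS (3.49 and 3.41) and EGR1 (2.7 and 4.16) lie at the upper right, and the other 8 genes lie inside the main cloud.

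The comparison of AGO2-IP with flow-through in mimic cells asks which mRNAs were associated with AGO2 when miR-99b-5p was abundant. None of the 10 genes was called by edgeR's quasi-likelihood test after Benjamini-Hochberg adjustment (the thresholds were an absolute log2 fold change of 1 and an adjusted p of 0.05), where 0.658% of all genes tested were called. At an unadjusted p under 0.05 it was 1 of 10, *MYC*, against 23.8% of all genes, and PyDESeq2 called 0 of 10 against 14.7%. The median log2 fold change of the 10 genes was 0.20, and that of all genes -0.11. The libraries of the fractions did not overlap for 3 of the 10 genes, with *MYC* and *IER2* above and *ATF3* below in AGO2-IP, against 28.1% of all genes above and 28.5% below (56.7% together).

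*MYC* had the highest estimate. It was at 370 and 541 CPM in the mimic AGO2-IP libraries and at 159 and 143 CPM in the flow-through libraries, or 456 ± 121 against 151 ± 11.3 CPM (mean ± SD, n = 2 each). Both AGO2-IP libraries lay above both flow-through libraries, and the log2 ratio within each replicate was 1.39 and 1.66. The log2 fold change was 1.55 (SE 0.596, 95% interval 0.24 to 2.86, adjusted p = 0.155 by edgeR's quasi-likelihood test after Benjamini-Hochberg adjustment), so it did not pass. The control pair gave 572 CPM in AGO2-IP and 101 CPM in flow-through, a log2 ratio of 1.60 without a replicate. With library size in place of TMM the values of *MYC* were 1.59 in the mimic and 2.49 in the control pair.

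*IER2*, an immediate early nuclear protein, was second. It was at 180 and 55.7 CPM in mimic AGO2-IP and at 49.2 and 41.0 CPM in mimic flow-through. The AGO2-IP libraries lay above, the second by a small margin, with log2 ratios of 2.05 and 0.19 within the replicates. The fit gave 1.34 (SE 0.680, 95% interval -0.16 to 2.83, adjusted p = 0.253 by edgeR's quasi-likelihood test after Benjamini-Hochberg adjustment), and the control pair, at 60.7 and 8.62 CPM, a log2 ratio of 1.90. The deposited unstranded column holds only 19.2% to 28.0% of the *IER2* read pairs found in the strand columns. On its opposite strand lie 2 annotated lncRNAs (ENSG00000287296 and ENSG00000267598), and unstranded counting leaves out pairs that fall on 2 genes. With the strand columns summed, where reads of the lncRNAs and of *IER2* are not told apart, the log2 fold change was 1.08 (SE 0.651). The unstranded column held 74.9% to 78.3% of the pairs for *JUNB*, which overlaps *HOOK2*, 76.8% to 84.2% for *MYC*, which overlaps *CASC11*, and at least 99.7% for the others.

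The estimates of the AP-1 genes lay between -0.50 and 0.55 in this fit, and each 95% interval was wide and held 0. Those of *JUNB* and *JUND* moved to 1.10 and 1.26 when the GC trend was removed, as described below. *JUN* was at 316 and 265 CPM in mimic AGO2-IP and at 215 and 385 CPM in flow-through. *JUNB*, a JUN protein with weaker activity on many AP-1 sites, was at 94.3 and 55.3 CPM and at 85.8 and 55.6 CPM. *JUND* was at 316 and 148 CPM and at 222 and 299 CPM. The fractions overlapped for all 3, and the log2 fold changes were -0.17 (95% interval -1.56 to 1.21), 0.07 (-1.24 to 1.38) and -0.27 (-1.67 to 1.13). In each of them the 2 replicates pointed opposite ways, with 0.73 and -0.79 for *JUN*, 0.31 and -0.26 for *JUNB* and 0.69 and -1.27 for *JUND*.
*FOSL1* was at 205 and 459 CPM in mimic AGO2-IP and at 414 and 313 CPM in flow-through. *FOSL2*, the gene with the seed match printed above, was at 700.1 and 1041 CPM and at 479 and 738 CPM. The fractions overlapped for both, with a log2 fold change of -0.14 (95% interval -1.50 to 1.21) for *FOSL1* and 0.41 (-0.95 to 1.78) for *FOSL2*. *FOSL2* was higher in AGO2-IP within each replicate (0.73 and 0.24) and in the control pair (0.80), which received no mimic.
*ATF3*, a stress-induced member of the ATF family, was at 4.36 and 3.10 CPM in mimic AGO2-IP and at 6.64 and 3.93 CPM in flow-through. Its 2 AGO2-IP libraries did not both lie below the second flow-through library before normalization, but they did after TMM, and the log2 fold change was -0.50 (95% interval -2.15 to 1.15). *FOS* (0.55, 95% interval -1.94 to 3.03) and *EGR1* (0.34, -2.10 to 2.77) had the widest intervals of the 10 genes. This fit ignored the pairing of the replicates. With the replicate block the SE fell from 1.13 to 0.736 for *FOS* and from 1.11 to 0.753 for *EGR1*. The log2 fold changes were then 0.52 and 0.94, and neither gene was called. Without the block, adjusted p-values of the AP-1 genes and *EGR1* lay between 0.707 and 0.953 by edgeR's quasi-likelihood test.

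**Figure D3:**
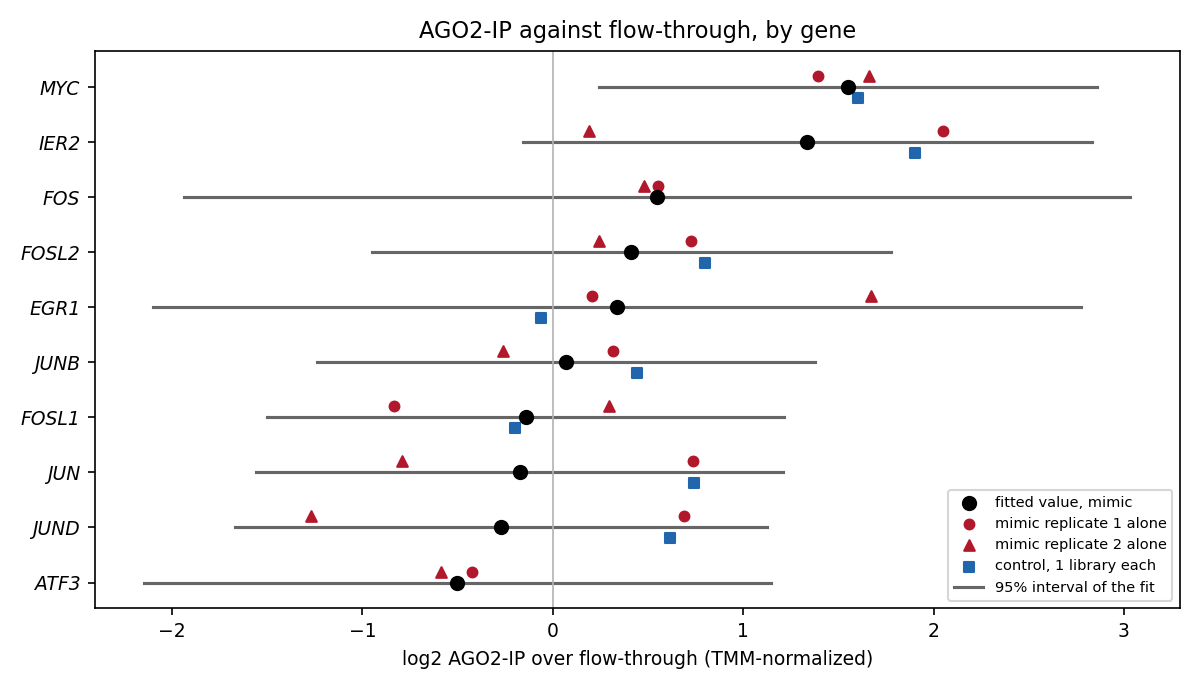
Log2 ratio of AGO2-IP over flow-through for each of the 10 genes, with the fitted value of the mimic libraries and its 95% interval (black), each mimic replicate alone (red) and the control pair with 1 library per fraction (blue squares, 8 genes with at least 200 counts). MYC is the only gene whose interval (0.24 to 2.86) leaves out 0, and its control value is 1.60.

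In the control pair 2 of 8 genes with enough counts had a log2 ratio of at least 1, *MYC* and *IER2*, and none of at most -1, against 15.9% and 18.1% of all genes. The others were *FOSL2* (0.80), *JUN* (0.74), *JUND* (0.62), *JUNB* (0.44), *EGR1* (-0.06) and *FOSL1* (-0.20), while *FOS* and *ATF3* held under 200 counts in the 2 libraries. With library size in place of TMM all 8 lay higher, from 0.70 for *FOSL1* to 2.78 for *IER2*, as the median of all genes was 0.89, so only their order relative to other genes is read here.

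The GC content of the transcripts moved with the flow-through libraries. Across the genes tested, which are not independent replicates, the log2 ratio of replicate 1 over 2 had a Spearman's rho of -0.734 with transcript GC content in flow-through and -0.003 in AGO2-IP. Of the 10 genes *JUND* had the highest GC content (69.9%), followed by *JUNB* (64.9%), *IER2* (63.0%), *FOSL1* (58.7%) and *JUN* (56.1%), and *MYC* had the lowest (48.8%). When each library's trend on GC content was removed, the log2 fold change of *JUND* moved from -0.27 to 1.26, that of *JUNB* from 0.07 to 1.10, that of *FOSL1* from -0.14 to 0.60, that of *JUN* from -0.17 to 0.53 and that of *IER2* from 1.34 to 2.39, while *MYC* stayed at 1.48. None of the 10 was called in this fit, where 5.68% of all genes were. With the replicate number as a block as well, 5 of 10 were called, all higher, where 26.7% of all genes were called and 14.0% called higher: *JUNB* 1.32 (adjusted p = 0.0213), *JUND* 1.30 (0.0171), *MYC* 1.45 (0.00911), *EGR1* 1.44 (0.0329) and *IER2* 2.29 (0.000335), all by edgeR's quasi-likelihood test after Benjamini-Hochberg adjustment. The block alone called 0 of 10, against 9.67% of all genes. Without the first mimic flow-through library 2 of 10 were called higher, *EGR1* (3.55) and *FOS* (3.07), where 40.8% of all genes were called and 20.2% called higher.

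**Figure D4:**
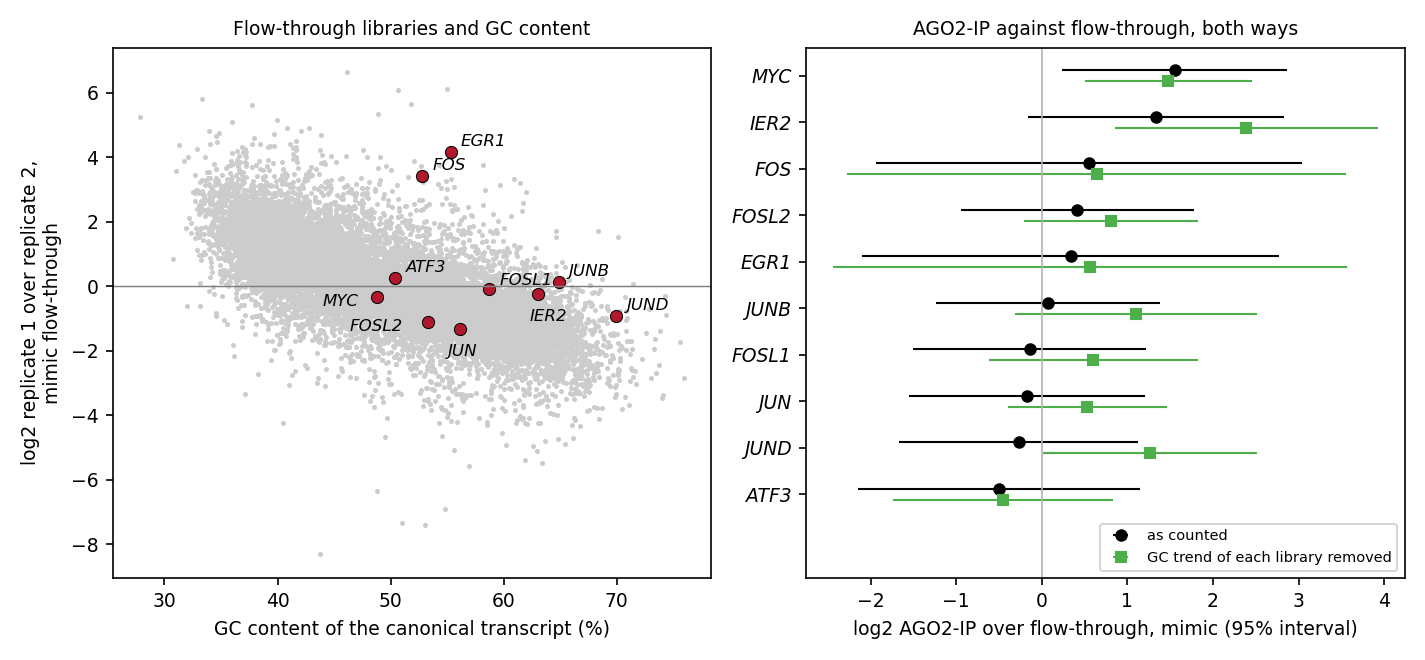
Left, GC content of the canonical transcript (%) against the log2 ratio of mimic replicate 1 over replicate 2 in flow-through, with 1 grey point per tested gene and the 10 genes in red. Right, log2 fold change of mimic AGO2-IP over flow-through with its 95% interval as counted (black) and after removal of each library's GC trend (green), where JUND moves from -0.27 to 1.26 and MYC from 1.55 to 1.48.

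The comparison of mimic with control libraries describes which mRNAs differed between the 2 conditions. *FOSL1* was lower in every mimic library than in the control library of its fraction, at 205 and 459 against 1051 CPM in AGO2-IP and at 414 and 313 against 649 CPM in flow-through. The log2 ratio was -2.25 and -1.03 in AGO2-IP (mean -1.64) and -1.38 and -1.26 in flow-through (mean -1.32). *ATF3* was also lower in all 4, with log2 ratios of -1.05 and -1.48 in AGO2-IP and -0.96 and -1.20 in flow-through, on 61 to 312 counts. Of the 11234 genes compared in both fractions, 13.9% were lower in all 4 mimic libraries. *FOSL2* (0.17 and 0.79 in AGO2-IP, 0.48 and 1.62 in flow-through) and *IER2* (1.68 and 0.04, 1.78 and 2.03) were higher in all 4, as were 15.5% of genes. Each comparison rests on 1 control library per fraction, so no p-value is given, and the control libraries also serve in the control pair above. The control libraries also differ from the mimic libraries in depth, multimapping and mitochondrial share, as given above. A difference that goes with the miRNA cannot be told apart from these.

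*JUND* was lower in mimic AGO2-IP (316 and 148 against 655 CPM, log2 ratios -0.95 and -1.99) and took both signs in flow-through (-0.78 and 0.17). *JUN* lay near the control in AGO2-IP (0.11 and -0.09) and above it in flow-through (0.35 and 1.71). *JUNB* was 0.48 and -0.23 in AGO2-IP and 0.84 and 0.74 in flow-through. *MYC* differed little from the control in either fraction, with -0.52 and 0.08 in AGO2-IP and -0.08 and 0.29 in flow-through. *FOS* and *EGR1* were above the control in the first mimic replicate and below it in the second in both fractions, with 2.21 and -1.28 in AGO2-IP and 2.18 and -1.21 in flow-through for *FOS* and 0.82 and -1.88, and 0.78 and -3.35, for *EGR1*.
A mean log2 ratio of at most -1 was seen for 3 of 10 genes in AGO2-IP (*FOSL1*, *JUND*, *ATF3*) against 17.4% of all genes, and for 3 of 10 in flow-through (*FOSL1*, *EGR1*, *ATF3*) against 10.2%. A mean of at least 1 was seen for 0 of 10 in AGO2-IP against 17.3%, and for 3 of 10 in flow-through (*IER2*, *FOSL2*, *JUN*) against 10% of all genes. Both mimic libraries were at most -1 for 2 of 10 genes in AGO2-IP (*FOSL1*, *ATF3*) against 12.2% of all genes and for 1 of 10 in flow-through (*FOSL1*) against 3.35%. Both were at least 1 for 0 of 10 in AGO2-IP against 12.2%, and for 1 of 10 in flow-through (*IER2*) against 2.8%. With library size in place of TMM the median of all genes in flow-through was 0.52, and *FOSL1* was at -0.85 and *ATF3* at -0.61 there, while *JUND* changed sign to 0.16. The GC trend removed, *JUND* in AGO2-IP was at -0.37 and *FOSL1* at -0.97.

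**Figure D5:**
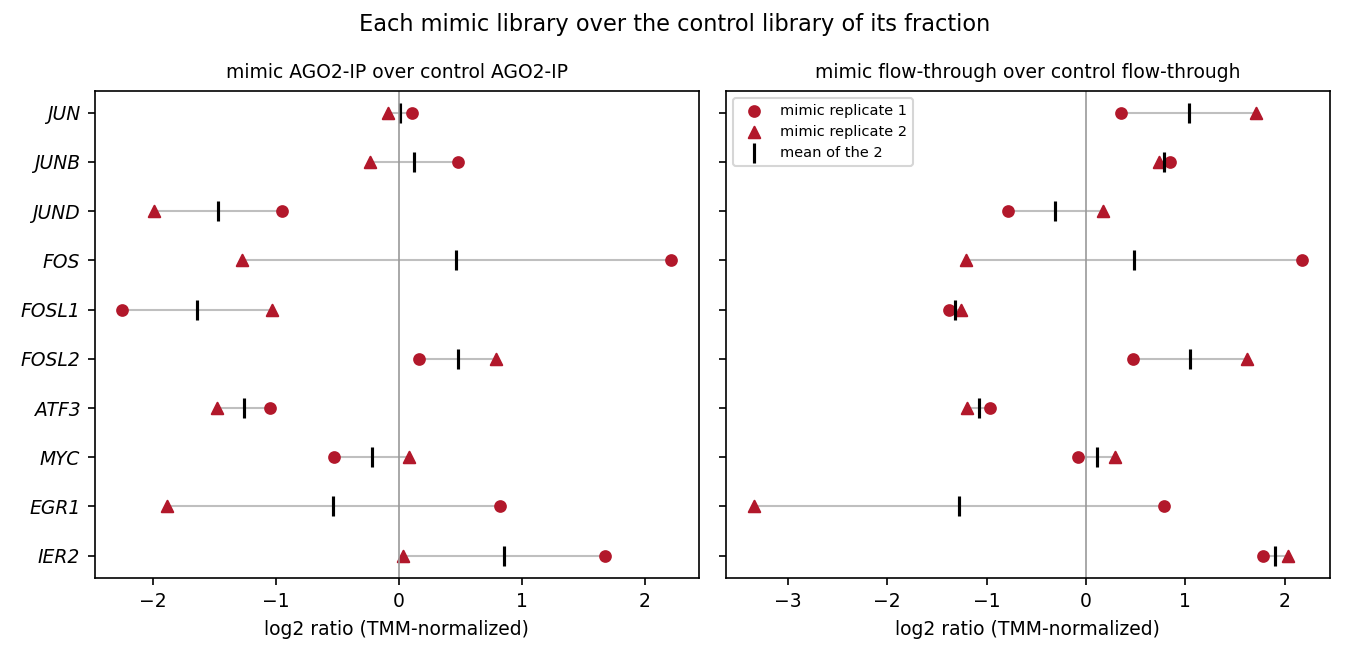
Log2 ratio of each mimic library over the control library of its fraction after TMM normalization (circles replicate 1, triangles replicate 2, bars their mean), AGO2-IP on the left and flow-through on the right. FOSL1 lies below 0 in all 4 (-2.25, -1.03, -1.38 and -1.26), and FOS and EGR1 lie on opposite sides of 0 in the replicates.

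Partner and regulator genes of the 10 were counted in the same fit of mimic AGO2-IP against flow-through, where 0.658% of all genes were called, 23.8% had an unadjusted p under 0.05 and the median was -0.11. Of 13 tested genes among other AP-1, ATF and MAF proteins, 0 were called (0 at an unadjusted p under 0.05, and the median was -0.23), from *MAFG* (1.04), a small MAF protein, to *BATF* (-1.73), an AP-1 family protein of lymphoid cells. Of 13 MYC partners and network genes 0 were called (2 at an unadjusted p under 0.05, and the median was -0.03), from *MYCBP2* (1.76), an E3 ubiquitin ligase, to *MLX* (-1.48), a MAX-like partner. *MAX* itself was at -0.50. Of 35 other immediate early and short-lived genes 0 were called (8 at an unadjusted p under 0.05, and the median was 0.16), from *BTG2* (3.55) to *ID3* (-1.83), an inhibitor of bHLH factors. In this list 6 genes were called higher with the replicate block, 6 with PyDESeq2, 4 with the GC trend removed and 13 with the block and the GC trend removed, against 4.6%, 6.45%, 3.32% and 14.0% of all genes called higher.
Of 20 MAP kinase pathway genes and the factors that induce immediate early genes 0 were called (5 at an unadjusted p under 0.05, and the median was 0.56), from *RPS6KA3* (2.22), a ribosomal S6 kinase, to *MAP2K2* (-2.62), the MEK2 kinase. The replicate block called 1 of these 20 higher and 2 lower, against 9.67% of all genes called. Of 10 genes that bind AU-rich elements or degrade mRNA 1 was called (2 at an unadjusted p under 0.05, and the median was 0.92), *HNRNPD*, whose protein AUF1 binds AU-rich elements, and the lowest was *CNOT7* (-0.86), a deadenylase. *HNRNPD* was at 1395 and 1526 CPM in mimic AGO2-IP and at 210 and 70.4 CPM in flow-through. Its log2 fold change was 3.45 (SE 0.664, adjusted p = 0.0490 by edgeR's quasi-likelihood test after Benjamini-Hochberg adjustment). The control pair had 186 CPM in AGO2-IP and 165 CPM in flow-through. After TMM over the 6 libraries the log2 CPM of *HNRNPD* in that pair was 7.24 in AGO2-IP and 7.98 in flow-through, so there it was lower in AGO2-IP. The call of *HNRNPD* was lost in 9 of 16 alternatives, among them each one that left out a mimic AGO2-IP library, with an adjusted p of up to 0.384, while the log2 fold change stayed between 2.91 and 4.05.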

How the data were processed

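The 10 genes and the gene lists beside them were chosen with earlier results of these data known. The authors checked reads with FastQC 0.11.9, trimmed them with cutadapt 3.5 and aligned them to GRCh38 with STAR 2.7.11b, which counted read pairs per gene. The authors deposited these counts as whole numbers, not normalized, in an unstranded column, used here, and 2 strand columns. Which Ensembl release was used is not given in the sources used here. GENCODE 44 named 60463 of 60708 identifiers by unversioned ID, and 245 stayed unnamed. Rows that name no gene held 21.4% to 47.2% of the read pairs of mimic libraries and 92.3% to 95.0% of those of control libraries, and were left out. The labels gave the fraction of the control libraries, which the supplement lists as control replicates without one.

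The test of mimic AGO2-IP against mimic flow-through was run in edgeR 4.0.16 with R 4.3.3 (glmQLFit and glmQLFTest, TMM), over genes whose counts summed to 200 or more. Genes were called at an absolute log2 fold change of at least 1 and a Benjamini-Hochberg adjusted p of at most 0.05 over all 13078 genes tested. The standard error is the log2 fold change over the square root of F. Comparisons with 1 control library are log2 ratios of CPM after TMM (prior count 2), without p-values. Scripts were tested on simulated data. Gene counts per library ran from 7772149 to 48544756.

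The labels give each biological replicate of the mimic both fractions, so the replicate numbers were taken to pair them in the ratios within replicates. The test as reported held the fraction only and ignored this pairing, which entered only the fits with the replicate block. Libraries with the same number deviated from their group means together across genes (Pearson's r 0.324, Spearman's rho 0.236). Alternatives were PyDESeq2 0.5.4, DESeq2 1.42.0 size factors or library size alone, no count filter, each strand column, protein-coding genes only, a GC trend removed by lowess with a span of 0.2, the replicate block, all 6 libraries in one fit, a prior count of 0.5, mitochondrially encoded genes left out and each replicate left out. Summing the strand columns was added after the data were seen.

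Named are the 10 genes, the highest, the lowest and any called gene of each list, the 2 protein-coding genes nearest to *JUN*, *FOSL1* and *MYC* over the 6 libraries, and the markers. Other names were chosen after their values were seen.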

Additional observations from a re-analysis of the deposited data

Results flagged for a closer look

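*EGR1* had a log2 ratio of AGO2-IP over flow-through of 0.21 and 1.67 in the mimic replicates and of -0.064 in the control pair, so both mimic replicates lay above 0 and the control just below it. The control value was 0.070 on column 4 and 0.82 with library size in place of TMM, so its side of 0 depends on the setting, and the difference was not tested.

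The strand columns of the tables, which the comparisons as reported do not use and some alternatives do, held 30123 and 9033 read pairs of *IER2* in mimic AGO2-IP, 8263 and 10316 in mimic flow-through, 2541 in control AGO2-IP and 349 in control flow-through, more than the unstranded column in each library.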

How the results depend on the processing

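None of the 10 genes was called with edgeR's quasi-likelihood test as reported or under 11 of the 12 alternatives that kept all 4 mimic libraries, the replicate block alone among them (median 0.26). With the replicate block and the GC trend removed it was 5. Without mimic flow-through replicate 1 *EGR1* was at 3.55 and *FOS* at 3.07, and without mimic AGO2-IP replicate 1 at -1.58 and -2.09. Fits with a library left out assume the lone library to vary like the others. For *EGR1* and *FOS* the difference between replicates also enters them. Leaving out each library in turn gave 0 to 2 called genes. Over all alternatives the adjusted p ran from 0.0147 to 0.948 for *EGR1*, 0.0461 to 0.873 for *FOS*, 0.00911 to 0.838 for *MYC*, 0.000335 to 0.967 for *IER2*, 0.0213 to 0.996 for *JUNB* and 0.0171 to 0.988 for *JUND*. The genes called over the whole table numbered 32 higher and 54 lower as reported, 601 and 664 with the replicate block, 843 and 1080 with PyDESeq2, 434 and 309 with the GC trend removed, 1835 and 1658 with both, 13 and 33 with DESeq2 size factors, 9 and 35 with library size alone, 419 and 204 without a filter, 1 and 17 on column 3, 2 and 12 on column 4, 5 and 24 on both summed, and 0 and 0 over protein-coding genes only, where 2873 had an unadjusted p under 0.05.

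The median log2 fold change of the 10 genes, 0.20, was 0.50 without a count filter, 0.72 with the GC trend removed, 1.05 with the block as well, and -0.31 to 0.23 with each library left out. *JUN* turned to 0.33 without a filter, 0.53 with the GC trend removed and 0.56 with the block as well, *FOSL1* to 0.25, 0.60 and 0.55, and *JUND* to 0.21, 1.26 and 1.30. *JUNB* turned to -0.036 on column 3 and -0.021 on column 4. With each library left out the ranges were -0.74 to 0.61 for *JUN*, -0.34 to 0.34 for *JUNB*, -0.89 to 0.23 for *JUND*, -2.09 to 3.07 for *FOS*, -0.92 to 0.33 for *FOSL1*, -0.085 to 1.05 for *FOSL2* and -1.58 to 3.55 for *EGR1*. The causes were not tested. *MYC* (1.17 to 1.97) and *IER2* (0.29 to 2.39) stayed above 0 and *ATF3* (-0.74 to -0.13) below it in every fit.

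The median of the control ratios, 0.68, was 0.57 on column 3 and 1.57 with library size alone. The median of mimic over control in flow-through, 0.30, was 0.13 with the GC trend removed, 0.14 on column 4, 0.77 with library size alone, 0.16 without mitochondrially encoded genes and 0.19 to 0.25 with a mimic library left out. In AGO2-IP it was -0.10, and -0.26 to 0.11 with a library left out. *EGR1* in flow-through ran from -3.43 to 0.62.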

Other observations

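The genes whose pattern over the 6 libraries lay nearest to that of *JUN*, by the Euclidean distance of centred log2 CPM among 10065 genes, were *ARAP3* (0.134) and *TACC3* (0.177). Nearest to *FOSL1* were *MBTPS2* (0.346) and *LPCAT2* (0.504), and nearest to *MYC* were *SMCR8* (0.268) and *KDM6B* (0.338). The 6 libraries share depth and fraction differences, so the distances are a description.

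*DUSP5*, a nuclear phosphatase that switches off ERK, was chosen after its values were seen. It was at 456 and 322 CPM in mimic AGO2-IP and at 57.6 and 27.1 CPM in mimic flow-through, and the control pair had 678 and 37.4 CPM. Its log2 fold change in the mimic was 3.23 (SE 0.641, adjusted p = 0.0504 by edgeR's quasi-likelihood test after Benjamini-Hochberg adjustment), so it did not pass.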
